A study of Rattus norvegicus with 10 samples.

Results

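The genes described here are 10 genes of satiety signalling, read in RNA of the rat nucleus tractus solitarii (NTS). They are the peptide precursor genes Gcg, Cck, Cartpt and Nts and the receptor genes Glp1r, Cckar, Cckbr, Lepr, Mc4r and Ntsr2. Every probe set was taken whose platform annotation gives 1 of these genes as its only symbol. This gave 16 of the 31042 probe sets on the array for 9 of the 10 genes: 7 for Lepr, 2 for Cckbr and 1 for each of the others. Cckar was not analysed here. Both groups were males, 10 to 13 weeks old, of the spontaneously hypertensive strain (SHR) and of the Wistar-Kyoto strain (WKY). SHR rats become hypertensive as they mature, and WKY rats are the normotensive strain usually set beside them. Neither strain was treated or carried a transgene, per the labels. Total RNA was hybridised to 10 Affymetrix arrays, 5 for each strain, so that transcript levels in the NTS could be set against each other between the strains. The design text calls the arrays independent replicates while the sample notes mention 5 animals, so it is unclear if each array stands for 1 animal or for several pooled. The p-values therefore reflect only how much these arrays vary, which may be technical in part.

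The NTS is the first relay in the brain for vagal afferents from the gut and also for baroreceptor afferents. Proglucagon neurons of the caudal NTS process the Gcg precursor to glucagon-like peptide 1 (GLP-1), which acts on the receptor encoded by Glp1r and reduces food intake. Cholecystokinin from the gut excites vagal afferents mainly through the receptor encoded by Cckar, and Cck and Cckbr are also expressed in the brain. CART peptide (Cartpt), leptin acting through Lepr, melanocortins acting through Mc4r and neurotensin (Nts) are further signals that lower feeding, and several of them also act on blood pressure.

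The promoters of 3 of the peptide precursor genes are shown because the RefSeq table holds them, while Cck was not matched in it. Each line gives the 250 bases before the RefSeq transcription start in assembly GRCr8, all on the minus strand, at chr3:67531534-67531783 for Gcg, chr2:32991236-32991485 for Cartpt and chr7:39460889-39461138 for Nts. Capitals mark the motifs found.
Gcg: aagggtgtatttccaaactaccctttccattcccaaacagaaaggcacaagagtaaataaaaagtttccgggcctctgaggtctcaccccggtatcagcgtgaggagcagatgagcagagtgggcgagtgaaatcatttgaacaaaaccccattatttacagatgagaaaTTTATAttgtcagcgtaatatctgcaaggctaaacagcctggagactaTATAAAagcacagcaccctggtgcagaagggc
Cartpt: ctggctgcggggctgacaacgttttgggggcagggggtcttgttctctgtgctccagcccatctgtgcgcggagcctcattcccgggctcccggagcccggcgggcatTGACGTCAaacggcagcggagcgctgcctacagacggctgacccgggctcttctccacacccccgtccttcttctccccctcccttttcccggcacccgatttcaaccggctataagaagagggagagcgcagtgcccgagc
Nts: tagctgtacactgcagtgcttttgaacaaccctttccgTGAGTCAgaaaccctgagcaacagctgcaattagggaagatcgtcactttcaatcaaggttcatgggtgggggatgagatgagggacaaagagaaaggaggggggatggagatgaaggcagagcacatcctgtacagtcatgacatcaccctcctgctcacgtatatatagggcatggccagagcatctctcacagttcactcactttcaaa

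The motifs searched on both strands, as exact letters, were the cAMP response element TGACGTCA, the AP-1 site TGAGTCA and TATAAA, a form of the TATA box. The first was found in Cartpt, 142 to 135 bases before the start, the second in Nts, 212 to 206 bases before it, and the third in Gcg, 32 to 27 and, on the other strand, 80 to 75 bases before it. Of the 33469 promoters in the table, 1.59% held the first of these exact motifs, 4.05% the second and 12.9% the third. Variants of the motifs were not searched, so a promoter without a match may still hold such an element. None of the 3 motifs was shared by 2 of the 8 member genes in the table, in which Cck and Cckar were not matched. These matches describe the sequence and do not show that a factor binds there.

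Signals are the deposited intensities on a linear scale, in array units. They are compared between strains for the same probe set and not between genes, since probe sets differ in brightness. Differences and folds are on log2(signal + 16), which understates the change of dim probe sets. A probe set was tested if at least 5 of the 10 arrays reached the 40th percentile of their own array, which kept 7 of the 16 member probe sets and 18846 of all. The median signal of an array was 44.2 to 49.8 in SHR, highest in SHR 2 and SHR 3, and 39.6 to 45.7 in WKY, lowest in WKY 4 and WKY 5. Of 9 markers fixed for NTS neurons 5 were tested, and their summed signal was 2205 to 2309 in SHR and 2422 to 3102 in WKY. Without Prlh, the prolactin-releasing peptide gene of NTS neurons, the sums were 1706 to 1770 and 1784 to 2099, again without overlap. The brightest of these markers, Slc17a6, averaged 998 in SHR and 1056 in WKY and differed by -0.081 (limma, adjusted p = 0.387). Among these 5 markers 4 differences were below 0. Prlh passed the threshold, and Dbh (-0.27) and Th (-0.18) had an unadjusted p below 0.05 in limma. Phox2a was the 1 above 0, with mean signals of 52.6 in SHR and 52.1 in WKY. Of 8 microglia markers 7 were tested and 3 were lower in SHR and passed, C1qa, Aif1 and C1qb. A dimmer Aif1 probe set differed by 0.51 (limma, adjusted p = 0.124). Of the 7 differences 6 were below 0, among these Itgam (-0.49), C1qc (-0.15) and Csf1r (-0.13), which did not pass. Cx3cr1 was above 0 (0.19, limma, adjusted p = 0.510). The sums were 1046 to 1110 in SHR and 1273 to 1480 in WKY, in which C1qa averaged 431 and 584. The part of the NTS neuron and microglia marker shifts in the members' values was not tested. Of 6 oligodendrocyte markers tested Mobp was lower (-0.34 at its brightest probe set). Its other kept probe sets differed by -1.41 and -0.022 (limma, adjusted p = 9.68e-09 and 0.925). Of the 6 differences 4 were below 0 and 2 above, among these Mbp (0.28; adjusted p = 0.0992). The sums overlapped, at 6732 to 8564 in SHR and 6352 to 8464 in WKY. Among markers of cholinergic motor neurons, cerebellum, area postrema, ependyma, meninges and red blood cells 0 passed in limma, with 2 of cerebellum, 1 of ependyma and 3 of meninges at an unadjusted p below 0.05.

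No member differed between the strains past the threshold. Of the 7 member probe sets tested, 0 had a Benjamini-Hochberg adjusted p below 0.05 in limma, against 4.26% of all probe sets tested (2.20% lower and 2.06% higher in SHR). For 0 of the 7 did the SHR values lie entirely above or below the WKY values, against 6.13% of all. An unadjusted p below 0.05 was reached by 1 of the 7, Gcg, against 21.0% of all. The median log2 difference of the 7, SHR minus WKY, was -0.0059 with 4 below 0, beside 0.016 for all probe sets tested. Adjusted p-values of the 7 ran from 0.184 to 0.962.

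**Figure D1:**
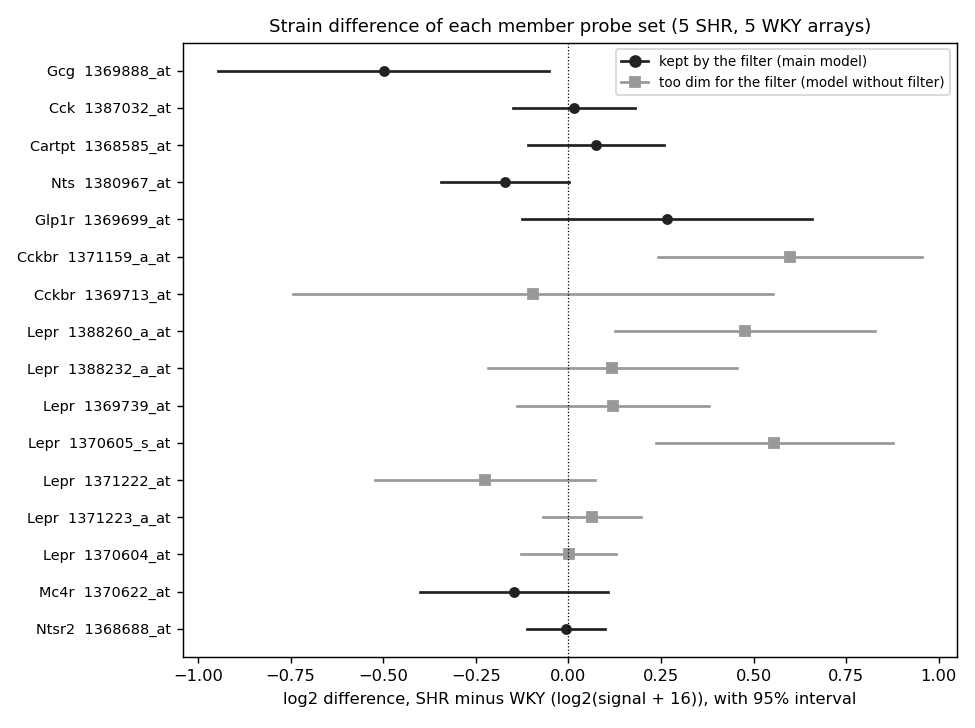
Log2 difference, SHR minus WKY, of each of the 16 member probe sets (points) with its 95% interval (lines); black circles are the 7 probe sets kept by the filter and grey squares the 9 too dim for it, fitted without the filter. Gcg stands at -0.50 with the widest interval of the peptide genes, and Ntsr2 at -0.0059 with a narrow one.

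Among the peptides, Gcg had the largest difference between the strain means. The signal of its probe set 1369888_at was 186, 92.2, 153, 215 and 126 in SHR 1 to 5 and 352, 206, 232, 124 and 225 in WKY 1 to 5. The WKY arrays were higher on average, but WKY 4 lay below 4 of the SHR arrays, so the groups overlapped. All 5 SHR arrays were below the WKY median of 225, and SHR 2 was the lowest of all 10. The means were 155 ± 48.3 in SHR and 228 ± 81.4 in WKY (SD, n = 5), a log2 difference of -0.50 ± 0.21 (SE) or 1.41-fold (limma, adjusted p = 0.184). The 95% interval of that difference, -0.94 to -0.053, did not reach 0, while the p adjusted over all probe sets did not pass. In the fit without the filter the interval was -0.999 to 0.00058 and did reach 0 (limma, unadjusted p = 0.0502). The difference was -0.33 without WKY 1, -0.35 without SHR 2 and -0.31 when SHR 3 was left out as well. Without WKY 4 it was -0.68 (adjusted p = 0.0695). The summed NTS neuron markers, given above, were also lower in every SHR array than in every WKY array, and WKY 1 was highest in both. With strain means subtracted, Gcg correlated with this sum at r = 0.653 over the 10 arrays (0.404 without WKY 1). Of all the marker sums, that of choroid plexus had the highest r with Gcg, 0.849 (0.771 without WKY 1), and that of area postrema had 0.591. These values are given as a description. In the choroid plexus sum, of 4 markers tested out of 10, Enpp2 averaged 748 in SHR, where the whole sum averaged 930. The defining markers Ttr and Sostdc1 averaged 58.1 and 46.1 there. The level of this sum is thus mostly that of 1 gene, and it is a weak measure of choroid plexus in the piece. The choroid plexus sum was on average higher in SHR, where Gcg was lower, and among the WKY arrays it was highest in WKY 1. Their part in the Gcg difference was not tested. In tissue RNA, fewer proglucagon neurons in the piece and less Gcg RNA in each cannot be told apart.

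Nts, the neurotensin and neuromedin N precursor, had signals of 355, 266, 320, 334 and 355 in SHR 1 to 5. In WKY 1 to 5 it had 344, 366, 337, 421 and 374. The highest values were in WKY and SHR 2 was the lowest, but 2 SHR arrays lay above 2 of the WKY arrays. The means were 326 ± 36.5 and 369 ± 33.3, and the log2 difference of -0.17 ± 0.082 was not past the threshold (limma, adjusted p = 0.240). The 95% interval ran from -0.34 to 0.0011. SHR 2 had one of the highest median signals and WKY 4, the highest for Nts, one of the lowest. With the median signal of the array as a covariate the difference was 0.012, of the opposite sign. It was -0.10 without SHR 2 and -0.075 when SHR 3 was left out as well.

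Cck, the cholecystokinin precursor, had nearly equal means in the strains, 413 ± 50.4 in SHR and 407 ± 19.5 in WKY. By array the signal was 454, 424, 409, 329 and 449 in SHR 1 to 5 and 410, 397, 395, 439 and 392 in WKY 1 to 5. SHR 4 was the lowest of the 10 and SHR 1 the highest, so the SHR arrays spanned the WKY arrays on both sides. The log2 difference was 0.015 ± 0.078 (adjusted p = 0.937), and its 95% interval corresponds to 0.901 to 1.13 times the WKY level. Its sign turned without SHR 1 (-0.021) and without SHR 5 (-0.016).

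Cartpt, the precursor of CART peptides, was far above the filter on all arrays and did not pass either. Its signal was 1250, 1224, 893, 1282 and 1281 in SHR 1 to 5 and 1162, 1084, 1025, 1210 and 1109 in WKY 1 to 5. In SHR 4 of the 5 arrays lay above all WKY arrays, and SHR 3 lay below all of them. The means were 1186 ± 166 and 1118 ± 71.4, a log2 difference of 0.074 ± 0.087 (adjusted p = 0.669; 95% interval -0.11 to 0.26). Without SHR 3 the difference was 0.17 (adjusted p = 0.127), and with the median-signal covariate it was 0.23 (adjusted p = 0.452).

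**Figure D2:**
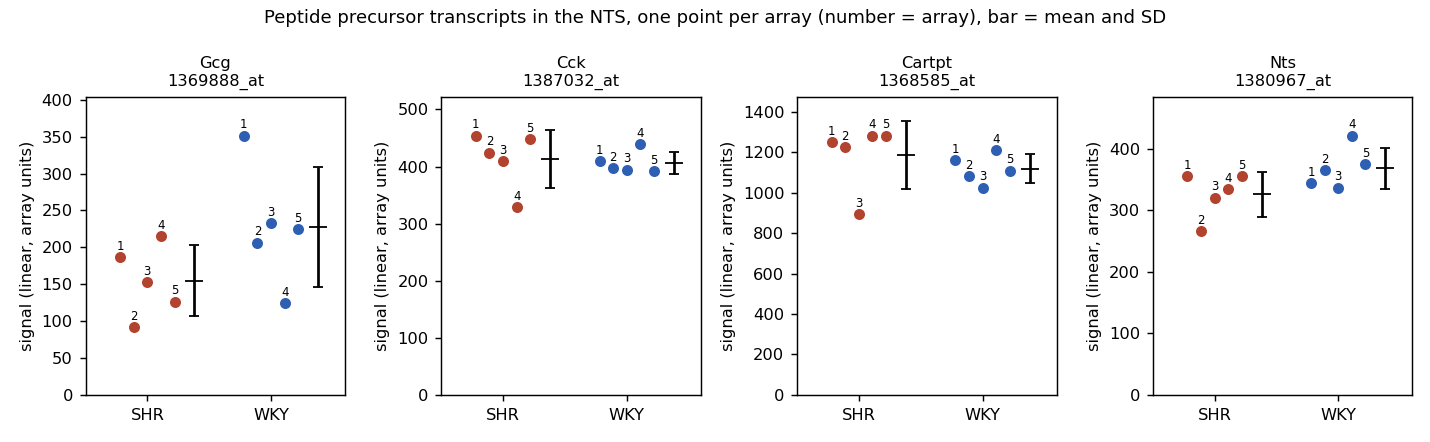
Linear signal of the 4 peptide precursor genes on each array (points, numbered by array) in SHR and WKY, with the mean and SD (bars, n = 5). Gcg runs from 92.2 in SHR 2 to 352 in WKY 1, whereas the Cck values of the strains lie over each other; Cartpt in SHR 3 stands at 893.

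Among the receptors, Glp1r, which binds the GLP-1 made from Gcg, was dim. Its signal was 41.7, 43.6, 46.3, 13.9 and 34.7 in SHR 1 to 5 and 29.9, 31.0, 25.2, 18.4 and 26.1 in WKY 1 to 5. In SHR 4 arrays were above all WKY arrays and SHR 4 was below all of them. The probe set passed the filter through 4 SHR arrays and 1 WKY array, at the limit of 5. The means were 36.0 ± 13.1 and 26.1 ± 4.96, a log2 difference of 0.27 ± 0.19 (adjusted p = 0.430; 95% interval 0.918 to 1.58 times the WKY level). Without SHR 4 it was 0.45 (adjusted p = 0.0851). With any of the 4 higher SHR arrays left out the probe set fell below the filter, so it has no value for those settings. The difference was 0.13 with quantile normalization and 0.037 with the median-signal covariate.

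Mc4r, the melanocortin receptor whose loss causes obesity, had signals of 67.8, 67.6, 40.2, 73.8 and 60.7 in SHR 1 to 5. In WKY 1 to 5 it had 76.1, 66.9, 68.3, 64.7 and 71.1. The WKY arrays lay close together and the SHR arrays scattered around and below them. The means were 62.0 ± 13.0 and 69.4 ± 4.41, a log2 difference of -0.15 ± 0.12 (adjusted p = 0.510; 95% interval 0.757 to 1.08 times the WKY level). SHR 3 was the lowest array for Mc4r, as it was for Cartpt and Ntsr2. The difference was -0.034 without SHR 3 and -0.036 when SHR 2 was left out as well. It was -0.078 with the median-signal covariate.

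Ntsr2, a neurotensin receptor found mainly on astrocytes in the brain, had the most even signal of the members. It was 1207, 1226, 1164, 1200 and 1281 in SHR 1 to 5 and 1221, 1198, 1192, 1223 and 1269 in WKY 1 to 5. The highest array was 1.10 times the lowest. The means were 1216 ± 42.9 and 1220 ± 30.5, a log2 difference of -0.0059 ± 0.050 (adjusted p = 0.962). The 95% interval corresponds to 0.925 to 1.07 times the WKY level. The sign of this small difference was positive without SHR 3, without WKY 5, without both SHR 2 and SHR 3 and with the median-signal covariate. Of 11 astrocyte markers 10 were tested and 0 passed in limma (3 at an unadjusted p below 0.05), with summed signals of 16451 to 19713 in SHR and 15927 to 17644 in WKY, and the defining markers Gfap and Aqp4 were measured on all arrays.

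**Figure D3:**
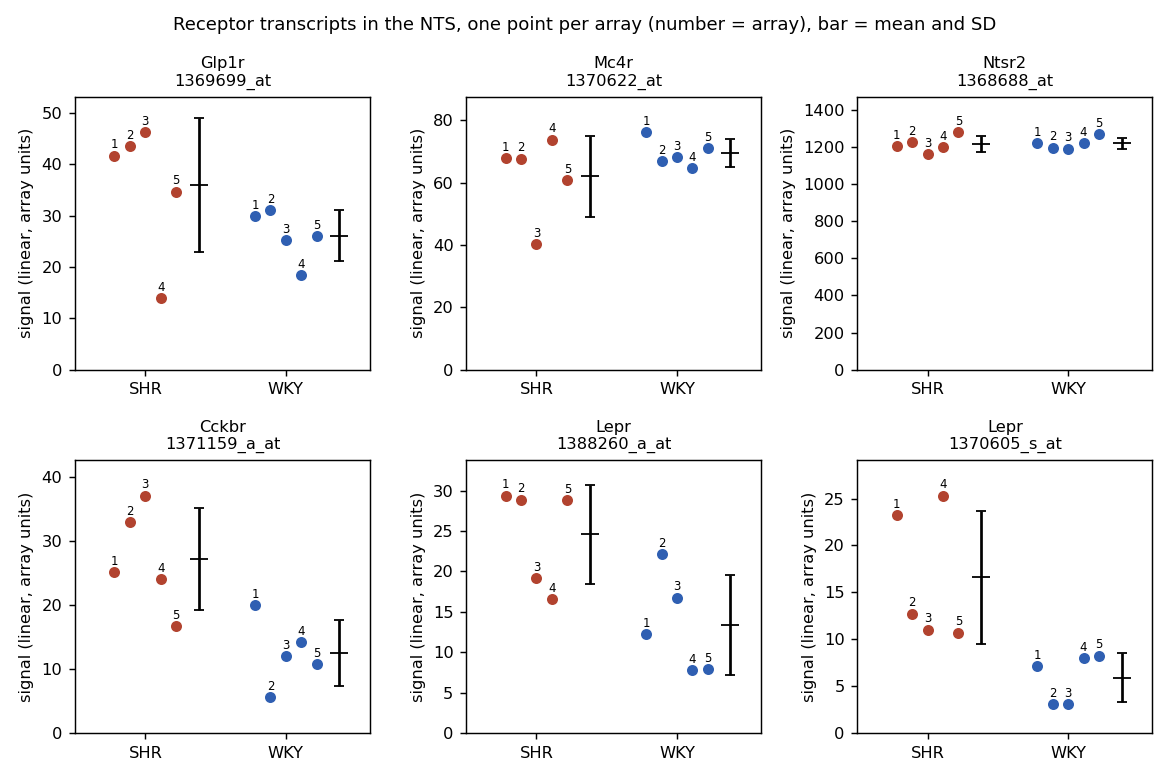
Linear signal of receptor genes on each array (points, numbered by array) in SHR and WKY, with the mean and SD (bars, n = 5); the upper row shows the 3 receptor probe sets kept by the filter, the lower row 3 dim probe sets of Cckbr and Lepr chosen because their unadjusted p was below 0.05. Glp1r in SHR 4 stands at 13.9 and Mc4r in SHR 3 at 40.2, while Ntsr2 is level across all 10 arrays.

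Cckbr and Lepr were too dim for the filter on all of their 9 probe sets, so their values come from a fit without the filter. In that fit 0 of the 16 member probe sets passed, against 2.18% of 31042, and 3 had an unadjusted p below 0.05, against 18.3%. The groups did not overlap for 1 of the 16, against 5.30%.

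Of the pair of Cckbr probe sets, 1371159_a_at had signals of 25.1, 32.8, 37.0, 24.0 and 16.7 in SHR 1 to 5. In WKY 1 to 5 it had 19.9, 5.64, 12.0, 14.2 and 10.7. SHR 5 lay below WKY 1, and the other SHR arrays lay above all WKY arrays. The log2 difference was 0.60 ± 0.17 (limma without the filter, adjusted p = 0.0831, n = 5 in each strain). It was 0.25 with an offset of 64 and 1.11 with an offset of 1, and 0.41 with the median-signal covariate (adjusted p = 0.598). Neither offset gave a call, and without SHR 5 it was 0.69 and passed (adjusted p = 0.0498). The other Cckbr probe set, 1369713_at, differed by -0.096 ± 0.30 (adjusted p = 0.897). Its signal was 60.02 in SHR 2 and 7.41 to 12.7 in the other SHR arrays, against 6.56 to 28.1 in WKY. Without SHR 2 it was -0.41 (limma without the filter, unadjusted p = 0.0472, adjusted p = 0.306), where 1371159_a_at was at 0.55, of the opposite sign. The sign of 1369713_at was not settled: it was positive without SHR 4 (0.012) and without WKY 4 (0.00089).

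Lepr is spliced into a long form that signals through Jak2 and Stat3 and shorter forms that share the extracellular part. Its 7 probe sets were designed from 5 sequence records, and the annotation does not say which form each of them reads. None of their values on any of the 10 arrays reached the 40th percentile of its array, and their median signals ran from 0.916 to 18.0. For 6 of the 7 the difference was above 0, 1 of them by 0.00095, and with quantile normalization this held for 4. Of all probe sets without the filter 39.0% were below 0, with a median of 0.046. The probe set 1370605_s_at had 23.3, 12.7, 11.02, 25.3 and 10.7 in SHR 1 to 5 and 7.10, 3.07, 3.07, 8.01 and 8.24 in WKY 1 to 5. All SHR values lay above all WKY values, though every value was low. Its log2 difference was 0.56 ± 0.15 (adjusted p = 0.0735). With offsets of 64 and 1 in place of 16 it was 0.20 and 1.36, so its size rests on the offset, and neither passed. With the median-signal covariate it was 0.74 (limma without the filter, adjusted p = 0.179).

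A second Lepr probe set, 1388260_a_at, had 29.4, 28.9, 19.2, 16.6 and 28.8 in SHR 1 to 5 and 12.2, 22.1, 16.8, 7.79 and 7.89 in WKY 1 to 5. Here 3 SHR arrays were above all WKY arrays and the others overlapped. The difference was 0.48 ± 0.16 (adjusted p = 0.149), 0.20 with an offset of 64, 0.90 with an offset of 1, and 0.29 with the median-signal covariate (adjusted p = 0.746). The remaining 5 probe sets differed by -0.23 to 0.12, and none of these had an unadjusted p below 0.05. Lepr is also known from choroid plexus and endothelium. Of 10 choroid plexus markers 4 were tested, 2 of them higher in SHR (Enpp2 and Sostdc1), with sums of 858 to 1017 in SHR and 648 to 917 in WKY. Of 11 endothelial markers 10 were tested, with sums of 1426 to 1569 and 1413 to 1515. Vwf was lower in SHR and passed, while 6 of the 10 differences were above 0, among them Pecam1 (0.40; adjusted p = 0.0851) and Tie1 (0.36; adjusted p = 0.129). Cldn5, a defining endothelial marker, averaged 390 in SHR and 393 in WKY. Ttr, of choroid plexus, averaged 58.1 and 67.0, with 182 in WKY 1 and 26.9 to 62.2 in the other WKY arrays. The log2 difference of Ttr was 0.068 (limma, adjusted p = 0.930). Sostdc1, the other defining marker of choroid plexus, averaged 46.1 and 28.7, and all 4 choroid plexus differences were above 0. The part of these tissues in the Lepr signal was not tested.

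The members differed in how much they varied between arrays of 1 strain. The SD within a strain was 0.46 log2 units for Gcg, at the 99.9 percentile of the 1000 kept probe sets nearest to it in mean signal. For Ntsr2 it was 0.043, at the 0.6 percentile of its own 1000 neighbours. Cartpt was at the 93.2 percentile and Cck, Nts, Glp1r and Mc4r between 58.2 and 74.1. The coefficient of variation of Gcg was 31.2% in SHR and 35.7% in WKY, so the spread was present in both strains. That of Cck, Cartpt and Mc4r was 12.2%, 14.0% and 21.0% in SHR against 4.80%, 6.39% and 6.35% in WKY. These differences in spread were not tested, and that of Cartpt and Mc4r includes SHR 3.

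**Figure D4:**
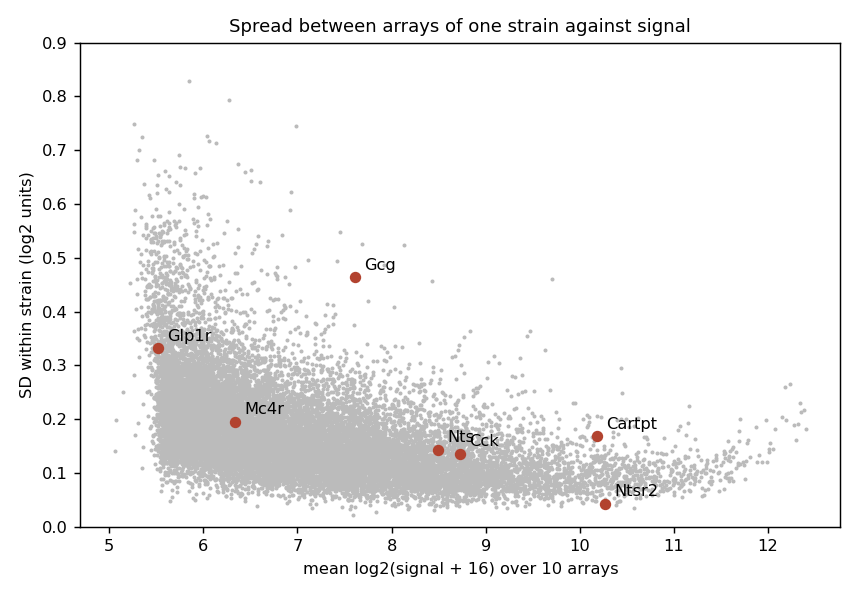
SD within a strain in log2 units against mean log2(signal + 16) over the 10 arrays, for all 18846 probe sets kept (grey) and the 7 of the member genes (red). Gcg, at 0.46, lies at the upper edge of the probe sets of like signal and Ntsr2, at 0.043, at the lower edge.

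The arrays did not order the members alike. Gcg was lowest in SHR 2 (-0.86 from its mean over the 10 arrays, in log2 units) and highest in WKY 1 (0.91). Nts was also lowest in SHR 2 (-0.36) but highest in WKY 4 (0.28), an array in which Gcg was low (-0.48). Cck and Glp1r were lowest in SHR 4 (-0.30 and -0.62), whereas Cartpt, Mc4r and Ntsr2 were lowest in SHR 3 (-0.35, -0.53 and -0.064), an array in which Glp1r was highest (0.44). No SHR array was thus the lowest for all members.

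**Figure D5:**
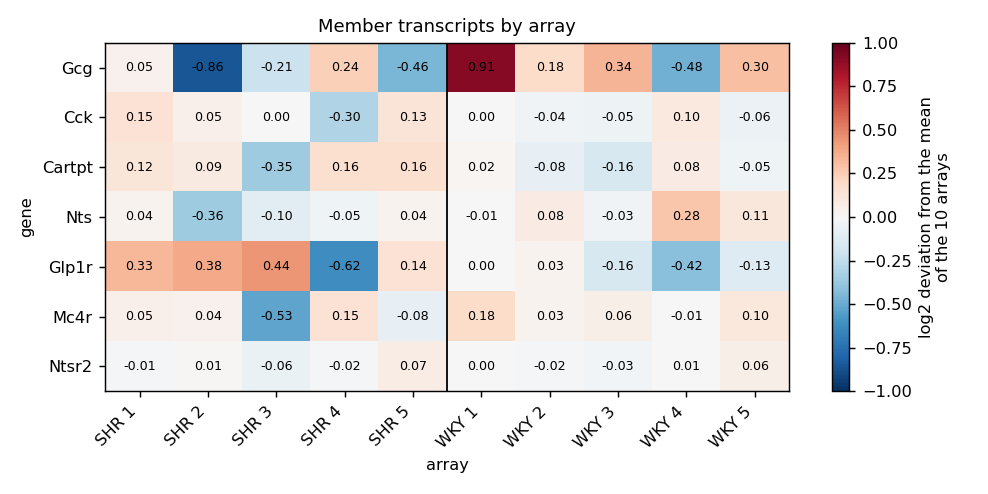
Deviation of each member gene on each array from its mean over the 10 arrays, in log2 units (colour scale and printed values), for the 7 probe sets kept, with SHR arrays left and WKY arrays right of the line. Different SHR arrays hold the lowest values of different genes: SHR 2 for Gcg and Nts, SHR 3 for Cartpt, Mc4r and Ntsr2, SHR 4 for Cck and Glp1r.

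Other genes of feeding signals were read from lists, with each gene represented by its brightest kept probe set, and 3.98% of the 10668 genes tested passed (2.32% lower and 1.67% higher in SHR). Among other feeding peptides 16 of 32 were tested and 3 were lower and 0 higher in SHR. The lower genes were Pdyn, the prodynorphin gene (-0.52 ± 0.083 at its brightest probe set), Tac1, the substance P precursor (-0.33 ± 0.070), and Prlh (-0.42 ± 0.11). A second, dimmer Pdyn probe set had a difference of -0.0023 ± 0.11 (adjusted p = 0.993). Pdyn and Tac1 kept their calls with each array left out and lost them with the median-signal covariate (adjusted p = 0.102 and 0.142). Prlh lost its call with any array other than WKY 3 or WKY 4 left out (without WKY 1, -0.30 and adjusted p = 0.0506), and in 5 of the 11 other settings (adjusted p up to 0.105). Among the peptides that did not pass were Npy, an appetite-stimulating peptide (0.0076 ± 0.066; adjusted p = 0.963), and Nucb2, the nesfatin precursor (0.13 ± 0.084; adjusted p = 0.387). Over the list the log2 differences had a median of -0.056, beside 0.0020 for all genes tested.

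Among other receptors of feeding signals 21 of 34 were tested and 0 passed in limma (1 at an unadjusted p below 0.05), with 10 differences below 0 and 11 above it and a median of 0.027. Ntsr1, the other G protein-coupled neurotensin receptor gene, had 55.1 ± 19.3 in SHR and 67.6 ± 10.7 in WKY (adjusted p = 0.348). Sort1, the sortilin gene that also binds neurotensin, had 405 ± 52.3 and 450 ± 33.7 (adjusted p = 0.288). Calcr and Ramp3, subunits of the amylin receptor of the area postrema beside the NTS, differed by 0.11 ± 0.084 and 0.16 ± 0.088 (adjusted p = 0.475 and 0.310). These receptor genes were named for their roles after their values were seen.

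In the enzymes and granule proteins that process peptide precursors 12 of 13 were tested, and 1 was higher in SHR and 0 lower. Cpe, the carboxypeptidase that trims peptide precursors, averaged 3905 ± 492 in the SHR arrays and 3151 ± 279 in the WKY arrays (0.30 ± 0.083; limma, adjusted p = 0.0477). Leaving out any array other than SHR 1 or SHR 5 ended the call (adjusted p = 0.0526 to 0.140), and with quantile normalization the difference was 0.075. The call was also lost in 6 of the 11 other settings (limma, adjusted p up to 0.425). Tpst1, a tyrosine sulfotransferase of the kind that sulfates cholecystokinin, had 168 ± 48.8 and 233 ± 20.9 and did not pass (-0.48 ± 0.14; adjusted p = 0.0552). Of 10 peptidases that break down such peptides 7 were tested and 0 passed in limma, with 0 at an unadjusted p below 0.05.

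In leptin signalling 13 of 15 genes were tested, and Pik3r1, the regulatory subunit of phosphatidylinositol 3-kinase, was lower in SHR. It had 72.9 ± 4.80 in SHR and 109 ± 19.4 in WKY (-0.48 ± 0.11; adjusted p = 0.0171), and the call ended without WKY 1 (adjusted p = 0.0523) and in 2 of the 11 other settings, the median-signal covariate and the fit without both SHR 2 and SHR 3 (adjusted p = 0.0693 and 0.0853). Leprot, which shares its first exons with Lepr, had 158 ± 21.8 and 180 ± 19.7 (adjusted p = 0.312). Socs3, the feedback inhibitor of the leptin receptor, had 27.5 ± 3.59 and 36.3 ± 4.22 (-0.27 ± 0.12; adjusted p = 0.230), and Stat3 differed by 0.12 ± 0.11 (adjusted p = 0.562).

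In cAMP signalling, which GLP-1 and melanocortin receptors use, 20 of 23 genes were tested and 1 was higher in SHR and 0 lower. Gnas, the stimulatory G protein gene, averaged 5766 ± 872 in SHR and 4323 ± 436 in WKY (0.41 ± 0.095; adjusted p = 0.0202). The dimmer probe set of this gene was also higher (0.40 ± 0.073; adjusted p = 0.00371). With quantile normalization the difference of the brighter probe set was -0.023, of the opposite sign, and it did not pass without SHR 2, SHR 4, WKY 1 or WKY 4, each left out alone (adjusted p = 0.0505 to 0.0718). It also did not pass in 5 of the 11 other settings (limma, adjusted p up to 0.779). Mrap2, an accessory protein of the melanocortin receptor, differed by 0.071 ± 0.075 (adjusted p = 0.626). In the phospholipase C pathway of cholecystokinin and neurotensin receptors 12 of 14 genes were tested and 0 passed in limma, with 1 at an unadjusted p below 0.05. Of 7 general neuron markers all were tested, and only Snap25 passed, higher in SHR. Of the 7 differences 5 were above 0 and 2 below, Tubb3 (-0.070) and Elavl4 (-0.038). Rbfox3, a defining marker, differed by 0.063 (limma, adjusted p = 0.766). The summed signals were 8085 to 9449 in SHR and 7269 to 8199 in WKY, in which Snap25 averaged 3739 and 2952. The part of these markers in the Cpe and Gnas differences was not tested.

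For each tested member the genes of most similar profile were found by Pearson's r over the 10 arrays after the strain means were subtracted, among 10667 other genes. They are given as a description without a test, and the best of so many genes is high for any profile. For Gcg they were Ccdc66 (r = 0.951, rho = 0.927) and Ccnd2 (0.920, 0.855), for Nts Nup153 (0.950, 0.964) and Prelid3b (0.944, 0.939), and for Cck Mknk2 (0.933, 0.879) and Fundc2 (0.926, 0.830). For Glp1r they were Hltf (0.950, 0.830) and Tesmin (0.949, 0.879), and for Ntsr2 Ggnbp2 (0.960, 0.903) and Yme1l1 (0.940, 0.745). For Cartpt, Lgals1 (0.967, 0.818) and Snapc1 (0.959, 0.624) and for Mc4r, Sema3f (0.984, 0.988) and Sncaip (0.967, 0.794) led. The number of genes at r of 0.9 or more was 6 to 13 for Gcg, Cck, Nts, Glp1r and Ntsr2 and was 42 for Cartpt and 27 for Mc4r.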

How the data were processed

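Per the labels' protocols, a MessageAmp II kit amplified the total RNA, which was hybridised to 1-colour Affymetrix Rat 230 2.0 arrays. The authors deposited 1 linear intensity for each probe set and array, and the submitters' processing notes name GCOS 1.2. For the background correction the step was not given in the sources used here. From the values, the 2% trimmed mean of each array was 100.0, so no further normalization was applied. The 57 control probe sets were left out.

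Titles gave the strain of each sample, and the first of each strain, without a number, is called 1. At most 2 values were identical between any pair of arrays. Log2(signal + 16) was fitted with strain as the single term in limma 3.58.1 under R 4.3.3 (lmFit, then eBayes with trend), and p-values were Benjamini-Hochberg adjusted over all probe sets kept. The model was tested on simulated data. Each gene was named by the platform annotation, with older symbols replaced by way of Entrez identifiers in RefSeq's GRCr8 table: 20826 probe sets had 1 symbol, 436 several and 9780 none. Promoters are from RefSeq.

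The members, lists and tests were chosen with earlier results of these data known. Named genes were all members, up to 3 genes of each pathway list past the threshold, and for each member the 2 genes of highest correlation; other genes were named for their roles after their values were seen. Lists covered other feeding peptides and receptors, precursor processing, peptide breakdown, leptin, cAMP and phospholipase C signalling, and markers of NTS neurons, neurons in general, cholinergic motor neurons, astrocytes, oligodendrocytes, microglia, endothelium, choroid plexus, ependyma, meninges, red blood cells, cerebellum and area postrema. Alternatives were scaling by quantiles or to a shared 75th percentile, an offset of 1 or 64, a filter at the 60th percentile or none, each gene by any kept probe set, eBayes without trend or robust, a replicate block, a median-signal covariate, each array left out, and SHR 2 and SHR 3 left out.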

Additional observations from a re-analysis of the deposited data

Results flagged for a closer look

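In 3 of the 32 groups of 5 values looked at (16 probe sets in each strain), 1 array stood apart from the other 4 by Dixon's criterion, and chance gives about 1 in 20. Cartpt was 893 in SHR 3 and 1224 to 1282 in the other SHR arrays. Glp1r was 13.9 in SHR 4 and 34.7 to 46.3 in the others. The dim Cckbr probe set 1369713_at was 60.02 in SHR 2 and 7.41 to 12.7 in the others.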

How the results depend on the processing

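None of the kept member probe sets passed the threshold under any of the 21 alternatives, and 133 of 140 recomputed values kept their direction. The 7 that turned were Cck without SHR 1 (-0.021) and without SHR 5 (-0.016), Nts with the median-signal covariate (0.012), and Ntsr2 with that covariate (0.047), without SHR 3 (0.0093), without WKY 5 (0.0082) and without both SHR 2 and SHR 3 (0.010). With 1 array left out, Cck ran from -0.021 to 0.091 and Ntsr2 from -0.025 to 0.0093. Gnas turned with quantile normalization (-0.023). Glp1r left the test in 7 alternatives, among them the filter at the 60th percentile. All probe sets past the threshold numbered 803 in the main fit, 206 with the covariate, 495 without SHR 2 and SHR 3, and 450 to 945 with 1 array left out. Fixed list genes past it numbered 14 in the main fit, 9 with quantile normalization, 8 without a filter, 5 with the covariate, 7 without SHR 2 and SHR 3, and 8 to 16 with 1 array left out. For these changes the cause was not tested. With the replicate number as a block 1214 probe sets passed and 0 members. Deviations of same-numbered arrays correlated at 0.038 to 0.28, over 0.1 in 3 of the 5 pairs, and those 3 correlated best with their own number. The labels name no shared litter, batch or day and not every pair was over 0.1, so the numbers were not taken as pairs, and whether they mark a pairing is not settled. The other settings were combined with no filter, a choice made after seeing the data, for the 3 dim probe sets of lowest p, and there Cckbr without SHR 5 was the single fit that passed (0.69). The dim signals of Cckbr and Lepr and the 5 arrays for each strain limit what could be seen.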
